A study of Mus musculus with 4 samples.

Results

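Cycling T cells were taken here as the T cell barcodes that held RNA of Mki67 or Top2a, 2 genes read as marks of division, and 174 such barcodes were found among 15319 immune-cell barcodes from mammary tumours of 2 mouse genotypes. A barcode, the tag that stands for 1 captured cell, counted as a T cell where it had at least 500 unique molecular identifiers (UMIs, the counted RNA molecules), at least 250 genes, at most 10% mitochondrial UMIs, at least 2 UMIs summed over the CD3 genes Cd3d, Cd3e and Cd3g, at most 2 UMIs of the macrophage genes C1qa, C1qb and C1qc, and at most 2 of the B cell genes Cd79a, Cd79b and Ms4a1. At least 1 UMI of Mki67 or Top2a made it a cycling T barcode, and the 7345 T barcodes with 0 such UMIs served as the comparison. The PyMT library gave 88 cycling barcodes among 4954 T barcodes and the Jagged1/PyMT library gave 86 among 2565.

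The mice were FVB/NJ, 12 weeks old, and either of the PyMT genotype or of the Jagged1/PyMT genotype, so both groups carry the PyMT oncogene and the Jagged1/PyMT group carries Jagged1 in addition. The labels do not say which promoter drives either gene. Immune cells were sorted by flow cytometry from digested tumours, 8000 of them were loaded, and RNA was counted from the 3' end of transcripts. There are 2 samples per genotype, but each genotype was deposited as 1 matrix with no key from barcode to sample, so the spread between mice could not be measured and no difference between genotypes has a replicate check. Every interval below is a 95% interval that covers counting error only.

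A T cell that meets its antigen leaves quiescence, enlarges, copies its DNA in S phase and divides in mitosis. Top2a encodes topoisomerase II alpha, which untangles DNA as chromosomes condense, and Mki67 encodes the Ki-67 protein that coats mitotic chromosomes; both are made from S phase to mitosis and fade afterwards. In tumours, dividing T cells are known to include regulatory T cells, which restrain other T cells and depend on the factor Foxp3, and antigen-driven CD8 T cells, which kill target cells. Genes of S phase are commonly driven by E2F factors, and genes of mitosis by the DREAM and MuvB complexes through CHR elements beside CCAAT boxes bound by NF-Y.

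The promoters of the marker genes Mki67 and Top2a and of the replication gene Mcm5, which encodes a subunit of the DNA helicase, are shown because the results turn on these genes being read as cycle genes. Each window is the 250 bases before the transcription start in RefSeq, build GRCm38.p6, written 5' to 3' along the gene, with each CCAAT box and, for Mki67 and Top2a, each TTTGAA element in capitals on either strand (reverse complements ATTGG and TTCAAA). The Mki67 window is chr7:135716380-135716629 on the minus strand, the Top2a window is chr11:99024190-99024439 on the minus strand, and the Mcm5 window is chr8:75109259-75109508 on the plus strand.
Mki67: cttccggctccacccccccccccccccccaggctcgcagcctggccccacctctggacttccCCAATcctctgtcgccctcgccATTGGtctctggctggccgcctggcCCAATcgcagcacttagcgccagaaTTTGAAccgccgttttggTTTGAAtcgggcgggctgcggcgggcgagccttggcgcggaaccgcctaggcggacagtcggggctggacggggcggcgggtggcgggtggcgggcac
Top2a: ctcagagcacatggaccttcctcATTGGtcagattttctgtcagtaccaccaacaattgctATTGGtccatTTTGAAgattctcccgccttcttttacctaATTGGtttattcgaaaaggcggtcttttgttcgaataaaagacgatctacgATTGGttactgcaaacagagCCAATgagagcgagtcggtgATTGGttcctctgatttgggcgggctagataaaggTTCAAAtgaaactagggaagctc
Mcm5: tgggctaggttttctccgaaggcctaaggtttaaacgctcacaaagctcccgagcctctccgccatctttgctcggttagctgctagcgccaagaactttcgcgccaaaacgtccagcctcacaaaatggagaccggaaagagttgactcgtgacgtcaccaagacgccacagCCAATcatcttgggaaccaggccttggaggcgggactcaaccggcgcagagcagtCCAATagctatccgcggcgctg
The Mki67 window held 3 CCAAT boxes and 2 TTTGAA elements, the Top2a window held 6 and 2, and the Mcm5 window held 2 CCAAT boxes, with no overlap between the motifs in these windows. Of the 38 genes of the G2 and mitosis list, 32 were matched in the RefSeq table, and 23 of them (71.9%) had a CCAAT box. Of the 36 genes of the DNA replication and S phase list, 29 were matched and 17 (58.6%) had one, against 34.5% of all 27025 genes in the table. TTTGAA stood in 11 of the 32 mitosis promoters (34.4%), in 5 of the 29 replication promoters (17.2%) and in 16.3% of all, whereas the E2F-type sequence TTTCCCGC stood in 3 of the 29 replication promoters (10.3%), in 0 of the 32 mitosis promoters and in 0.929% of all. These are matches of letters and not measured binding.

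Before the results, 3 facts of the libraries bear on them. The PyMT matrix summed to 36012036 UMIs with 7444 barcodes kept, and the Jagged1/PyMT matrix to 55506773 UMIs with 7875 kept; 70 kept barcodes occurred in both, among them 1 cycling T barcode of PyMT. Jag1, the gene added in the second genotype, gave a UMI in 2 of the 88 cycling T barcodes of PyMT (2.27%) and in 12 of the 86 of Jagged1/PyMT (14.0%, interval 7.42 to 23.1), and in 0.0822% and 8.75% of the T barcodes without Mki67 or Top2a. RNA free in the droplets, read from barcodes with under 100 UMIs, held Mki67 and Top2a together at 34.5 CPM (UMIs of a gene scaled to a total of 1000000 UMIs) in PyMT and 71.1 in Jagged1/PyMT.

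Most of the members rest on 1 molecule. In PyMT, 55 of 88 cycling T barcodes held exactly 1 UMI of the marker pair, 44 of them Top2a and 11 Mki67. In Jagged1/PyMT, 50 of 86 held exactly 1, 38 Top2a and 12 Mki67. At least 2 UMIs were held by 33 and 36 barcodes, at least 5 by 22 and 21, and the highest counts were 80 and 73. The barcodes with more marker RNA were also deeper: the median was 3892 UMIs in PyMT and 3779 in Jagged1/PyMT with 0 marker UMIs, 4918 and 5372 with 1, and 17456 and 15897.5 with at least 2.

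The other genes of the cell cycle separated these members. The replication list (36 genes such as Pcna, the sliding clamp of DNA polymerase, and the Mcm helicase genes) and the mitosis list (38 genes such as Birc5 and Ube2c) do not hold Mki67 or Top2a. Per 10000 UMIs of a barcode, both lists together had a median of 9.93 UMIs in PyMT T barcodes with 0 marker UMIs, 11.6 in those with 1 and 88.5 in those with at least 2. In Jagged1/PyMT the medians were 7.98, 10.4 and 89.6 in the same order. Barcodes just outside the rule and those just inside it therefore lay close together. Cycle-list RNA was mixed at 2 to 4 marker UMIs, with medians of 60.2 and 49.8 per 10000, and higher at 5 or more, with medians of 96.0 and 111.

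**Figure D1:**
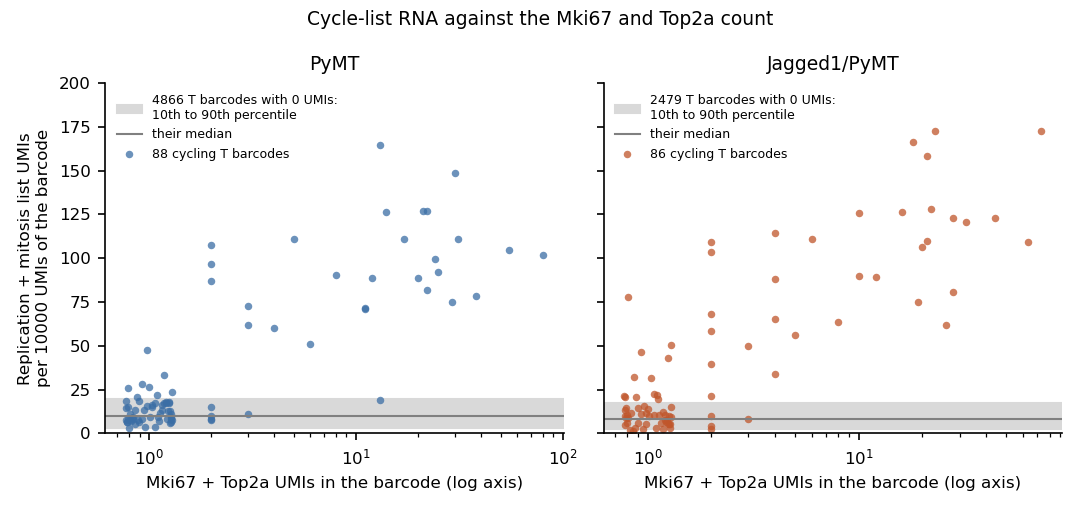
Each point is 1 cycling T barcode, plotted by its Mki67 and Top2a UMIs (log axis; points at 1 UMI are spread sideways) and by its replication and mitosis list UMIs per 10000 UMIs. The grey band holds the middle 80% of the T barcodes with 0 marker UMIs, around medians of 9.93 (PyMT) and 7.98 (Jagged1/PyMT); most points at 1 UMI lie in or near the band, and most points at 2 or more lie far above it.

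Barcodes rich in cycle RNA, defined after the values had been seen as holding at least 20 UMIs and at least 40 per 10000 of both lists, made up 27 of the 33 PyMT members with at least 2 marker UMIs and 29 of the 36 of Jagged1/PyMT. They were 6 of 11 and 8 of 15 at 2 to 4 marker UMIs, and 21 of 22 and 21 of 21 at 5 or more. Among members with 1 marker UMI they numbered 1 of 55 and 4 of 50, and among T barcodes with 0 they numbered 4 of 4866 and 4 of 2479. Members with at least 2 marker UMIs were not all of 1 kind: their list rate ran from 7.53 to 165 per 10000 in PyMT and from 2.67 to 173 in Jagged1/PyMT. One PyMT CD8 barcode with at least 5 marker UMIs had a rate of 19.3, the lowest of that group.

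The label was read against its markers as a description, since the rule itself used the CD3 genes. Cd3e, a signalling chain of the T cell receptor complex, had a UMI in 33 of 33 PyMT members with at least 2 marker UMIs and in 35 of 36 of Jagged1/PyMT, at 630 and 852 CPM against 1086 and 971 in T barcodes without the markers. B cell core genes reached 3 UMIs in 0 of the 88 and 0 of the 86 cycling barcodes, and epithelial core genes in 0 and 0. Macrophage core genes (7 genes from C1qa to Lyz2) reached 3 UMIs in 4 of 88 and in 17 of 86, against 2.36% and 11.2% of T barcodes without the markers, with highest sums of 405 and 221 UMIs. Neutrophil core genes reached 3 UMIs in 0 and in 1 member and summed to 0.984 and 17.5 CPM, with Retnlg at 0 in both libraries. What part such barcodes have in the comparisons between genotypes was not tested. Ratios of cycling shares between genotypes are also given without them for all T, CD8 and Foxp3 barcodes, which leaves out 4 of 88 and 20 of 86 members.

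Cycling T cells made up a larger share of T cells in the Jagged1/PyMT library. The share was 1.78% (interval 1.43 to 2.18) in PyMT and 3.35% (2.69 to 4.12) in Jagged1/PyMT, a ratio of 1.89 (1.41 to 2.53). Free RNA of the 2 markers was also higher in Jagged1/PyMT, at 71.1 against 34.5 CPM, and its part in this ratio was not tested. Members with at least 2 marker UMIs were 0.666% (0.459 to 0.934) and 1.40% (0.985 to 1.94), a ratio of 2.11 (1.32 to 3.37). By the 2 cycle lists in place of the markers, 32 and 37 barcodes qualified, 0.646% and 1.44%, a ratio of 2.23 (1.39 to 3.58). Thinned to 1000 UMIs in 1 random draw, with 27 and 22 cycling barcodes, the ratio was 1.59 (0.908 to 2.79), an interval that includes 1. Averaged over all possible draws, 27.8 and 28.1 cycling barcodes were expected, a ratio of 1.98. The direction was the same in each of these cases, and without barcodes that held UMIs of a further lineage the ratio was 1.70 (1.24 to 2.34).

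The part of these shares that rests on 1 UMI was near the level in B cells. In PyMT, 1.11% of T barcodes (0.837 to 1.44) held exactly 1 marker UMI against 1.17% of B cell barcodes (0.672 to 1.9). In Jagged1/PyMT the values were 1.95% (1.45 to 2.56) and 1.5% (0.905 to 2.33). At least 2 marker UMIs were held by 0.220% of B cell barcodes in PyMT (0.0454 to 0.642) and by 0.474% (0.174 to 1.03) in Jagged1/PyMT, at median depths of 3490 and 3184 UMIs against 3909 and 3809 for T barcodes. Macrophage barcodes held at least 1 marker UMI in 8.56% (4.97 to 13.5) in PyMT and 19.4% (17.6 to 21.2) in Jagged1/PyMT. They held at least 2 in 3.74% (1.52 to 7.56) and 10.8% (9.39 to 12.3), at median depths of 3259 and 7259 UMIs. Marker shares were thus higher in Jagged1/PyMT in macrophage barcodes too. What part of the T cell difference is shared with other cells was not tested. Neutrophil barcodes, whose mature cells do not divide, held a marker UMI in 0 of 64, which allows a share of up to 4.69% (3 counts of the total), and in 1 of 161 (0.621%). The share with a single UMI was thus not distinguishable from that in B cell barcodes, which can divide too. The gene comparisons between genotypes below use all members, including those with 1 UMI, unless a count of 2 is named.

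Foxp3 barcodes had the highest share of cycling cells in both libraries. Subsets were called from raw UMIs: CD8 (Cd8a or Cd8b1 without Cd4), both CD4 and CD8, Foxp3 without CD8, other CD4, gamma-delta (Trdc, the delta chain constant gene) and none of these. Of 84 Foxp3 barcodes in PyMT, 10 were cycling (11.9%, 5.86 to 20.8), and of 38 in Jagged1/PyMT, 9 were (23.7%, 11.4 to 40.2). With at least 2 marker UMIs the counts were 6 (7.14%, 2.67 to 14.9) and 7 (18.4%, 7.74 to 34.3). Foxp3 barcodes were thus 12.9 times (5.46 to 30.4) as often cycling as all other T barcodes in PyMT and 16.1 times (7.5 to 34.3) in Jagged1/PyMT by the count of 2, and 7.43 (3.99 to 13.8) and 7.77 (4.22 to 14.3) times by the count of 1.

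Depth enters this comparison, since a deeper barcode is more likely to show both Foxp3 and a marker. Barcodes were thinned to 5000 UMIs, a depth chosen after the values had been seen. Those with fewer were left out, 3806 of 4954 T barcodes in PyMT and 1980 of 2565 in Jagged1/PyMT. In what remained, 5 of 25 and 4 of 9 Foxp3 barcodes were cycling. The ratio of Foxp3 barcodes to the rest was 6.42 (2.75 to 15) in PyMT and 6.40 (2.91 to 14.1) in Jagged1/PyMT. Thinned to 1000 UMIs, it was 5.52 (0.772 to 39.6) and 8.52 (1.23 to 59.1), each from 1 cycling Foxp3 barcode. The ratio thus stayed above 1 in both libraries at both depths, with an interval that includes 1 in PyMT at 1000 UMIs. Between genotypes, the share of Foxp3 barcodes that were cycling had a ratio of 1.99 (0.881 to 4.49), an interval that includes 1, and of 1.74 (0.676 to 4.49) without barcodes of a further lineage.

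**Figure D2:**
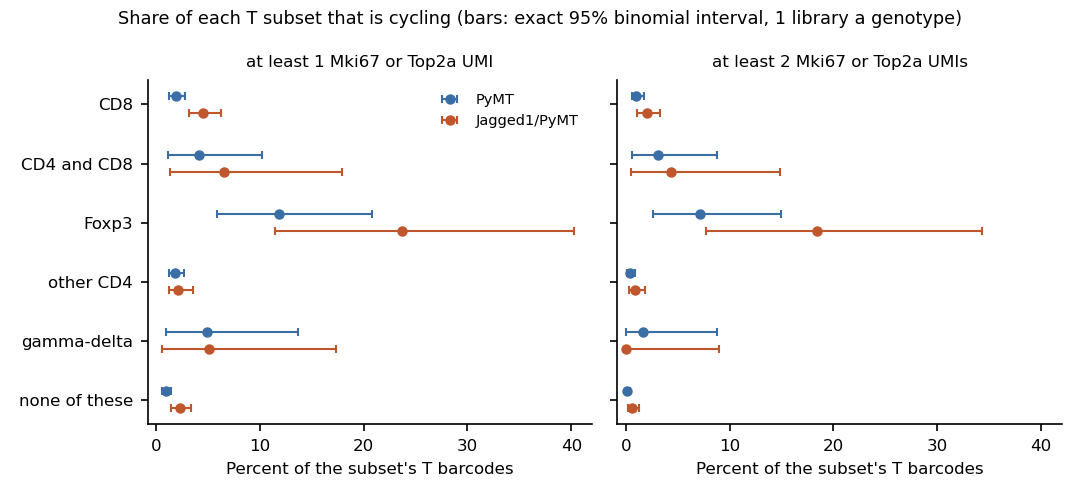
Points give the percent of each T subset's barcodes that were cycling by at least 1 (left) and at least 2 (right) marker UMIs, in PyMT (blue) and Jagged1/PyMT (red), with exact binomial intervals. Foxp3 barcodes lie farthest right in both libraries, at 11.9% and 23.7% on the left panel, and the intervals of the 2 libraries overlap there.

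The make-up of cycling T cells by subset depended on the count of marker UMIs. By at least 1 UMI, other CD4 barcodes were 27 of 88 (30.7%, 21.3 to 41.4) in PyMT and 15 of 86 (17.4%, 10.1 to 27.1) in Jagged1/PyMT, and CD8 barcodes 26 (29.5%, 20.3 to 40.2) and 34 (39.5%, 29.2 to 50.7). By at least 2 UMIs, CD8 barcodes were 14 of 33 (42.4%, 25.5 to 60.8) and 15 of 36 (41.7%, 25.5 to 59.2), Foxp3 barcodes 6 (18.2%) and 7 (19.4%), and other CD4 barcodes 6 (18.2%) and 6 (16.7%). T barcodes with 0 marker UMIs, which are shallower, were 27.2% and 28.8% CD8, 1.52% and 1.17% Foxp3, and 28.8% and 27.2% other CD4. Thinning to 5000 UMIs kept only the 1148 and 585 T barcodes of at least that depth. Among them, CD8 barcodes were 40% of cycling and 49.9% of other T barcodes in PyMT, and 52.3% and 54.7% in Jagged1/PyMT. Other CD4 barcodes were 22.5% and 19.9%, and 15.9% and 15.7%. At that depth the share of CD8 barcodes that were cycling, over the share in the other T barcodes, was 0.678 (0.364 to 1.26) in PyMT and 0.913 (0.517 to 1.61) in Jagged1/PyMT, and for other CD4 barcodes it was 1.16 (0.560 to 2.4) and 1.01 (0.466 to 2.20). These intervals include 1, so no difference of CD8 or other CD4 barcodes from the rest was detectable at 5000 UMIs. Thinned to 1000 UMIs in 1 random draw, the CD8 ratio was 2.62 (1.18 to 5.82) from 9 cycling barcodes in PyMT. In Jagged1/PyMT it was 0.641 (0.190 to 2.16) from 3. Averaged over all possible draws, with subsets called from whole barcodes, 0.657% of CD8 and 0.564% of all T barcodes were expected to be cycling in PyMT. In Jagged1/PyMT the values were 1.25% and 1.11%. Thinning to 1000 and to 5000 UMIs keeps different barcodes, so an effect of depth alone on the ratio cannot be read from these values.

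Of CD8 barcodes, 26 of 1350 were cycling in PyMT (1.93%, 1.26 to 2.81) and 34 of 748 in Jagged1/PyMT (4.55%, 3.17 to 6.29), a ratio of 2.36 (1.43 to 3.9). Without barcodes of a further lineage the CD8 counts were 25 and 23 and the ratio was 1.88 (1.07 to 3.28). By at least 2 marker UMIs the CD8 shares were 1.04% (0.568 to 1.73) and 2.01% (1.13 to 3.29), with a ratio of 1.93 (0.939 to 3.98). Other CD4 barcodes were cycling in 27 of 1429 (1.89%) and 15 of 690 (2.17%), a ratio of 1.15 (0.616 to 2.15). The interval of the CD8 ratio lies above 1 by the count of 1 marker UMI and includes 1 by the count of 2, and that of other CD4 cells includes 1 by both. The CD8 ratio was 2.45 (1.24 to 4.86) by the cycle lists and 2.56 (1.37 to 4.78) thinned to 5000 UMIs. Both settings were chosen after the values had been seen. Thinned to 1000 UMIs, where subset and marker calls both rest on few molecules, the CD8 ratio in 1 random draw was 0.527 (0.143 to 1.94), from 9 and 3 cycling barcodes; averaged over all possible draws, with subsets called from whole barcodes, it was 1.90.

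The remaining subsets had few members. Barcodes with both Cd4 and Cd8 RNA were cycling in 4 of 97 (4.12%) and 3 of 46 (6.52%), gamma-delta barcodes in 3 of 61 (4.92%) and 2 of 39 (5.13%), and barcodes with none of the subset genes in 18 of 1933 (0.931%) and 23 of 1004 (2.29%). Gamma-delta members with at least 2 marker UMIs numbered 1 and 0, and a count of 0 among 39 allows a share of up to 7.69% (3 counts of the total). The ratio between genotypes in barcodes with none of the subset genes was 2.46 (1.33 to 4.54) by the count of 1 and 3.85 (0.965 to 15.4) by the count of 2, while those of the other subsets named here had intervals that include 1.

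Replication RNA exceeded mitosis RNA in most members with at least 2 marker UMIs. In PyMT, 25 of 33 had more replication list than mitosis list UMIs, and in Jagged1/PyMT 23 of 36 did. The same lead was seen in T barcodes with 0 marker UMIs. There, replication UMIs led in 2456 and mitosis UMIs in 1494 in PyMT, and in 1338 and 578 in Jagged1/PyMT. The lead is thus not particular to the members. Among those rich in cycle RNA the counts were 21 with more replication against 6 with more mitosis RNA in PyMT, and 17 against 12 in Jagged1/PyMT. The medians were 50.6 replication and 29.2 mitosis UMIs per 10000 in PyMT, and 43.2 and 35.3 in Jagged1/PyMT. Among Foxp3 members, replication RNA led in 4 of 6 and 3 of 7, and among CD8 members in 11 of 14 and 9 of 15.

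**Figure D3:**
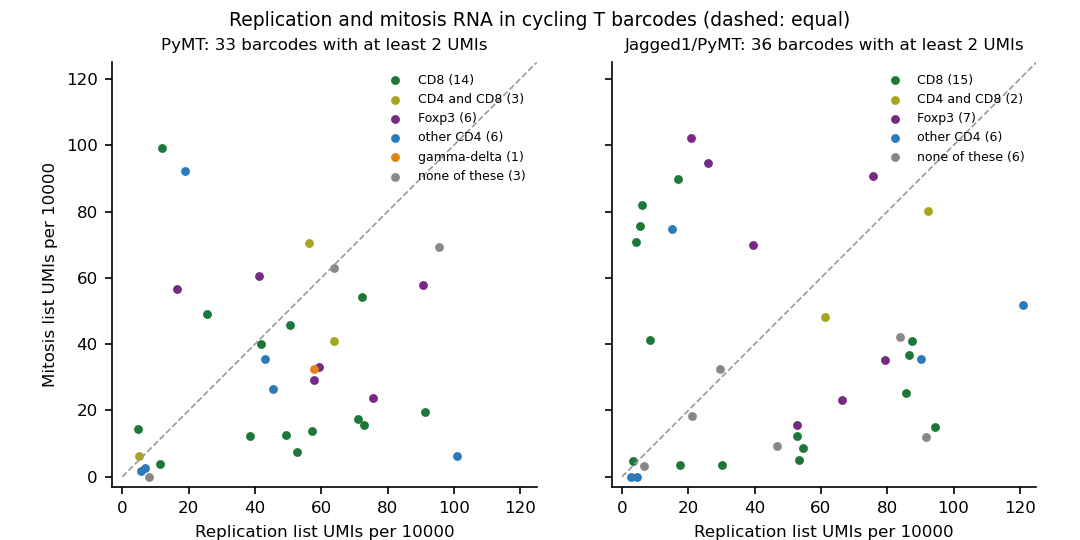
Each point is 1 cycling T barcode with at least 2 marker UMIs, plotted by replication list (x) and mitosis list (y) UMIs per 10000 and coloured by subset; the dashed line marks equal values. In PyMT 25 of 33 points and in Jagged1/PyMT 23 of 36 points lie below the line, and each subset with 6 or more members has points on both sides of it.

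Levels of the cycle genes in these members were close between the libraries. Pcna stood at 282 CPM (interval 244 to 325) in PyMT and 295 (252 to 342) in Jagged1/PyMT members with at least 2 marker UMIs, against 54.7 and 41.5 in T barcodes without them. Birc5, which encodes survivin of the chromosomal passenger complex, stood at 305 (265 to 350) and 310 (267 to 359), against 0.292 and 1.07. Rrm2, a subunit of ribonucleotide reductase, stood at 380 and 440, against 2.33 and 2.62. The markers Mki67 (380 and 492) and Top2a (400 and 436) are given as a description, since the rule used them.

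The rest of the transcriptome of members with at least 2 marker UMIs is given against T barcodes without them as a description, since the rule chose the members on this contrast. Past 1.5-fold, 37% of 9367 genes measured were higher and 18.9% lower in PyMT, and 35.3% of 8409 were higher and 17.6% lower in Jagged1/PyMT, at much greater depth per barcode. Genes of the naive state and of homing to lymph nodes were lower: 11 of 12 in PyMT and 12 of 12 in Jagged1/PyMT, with 0 higher. Satb1, a chromatin organiser of naive T cells, had 96.4 CPM (74.6 to 123) against 783 in PyMT and 98.8 (75 to 128) against 518 in Jagged1/PyMT. Klf2, a factor that keeps T cells quiescent and recirculating, had 262 against 1534 and 409 against 1948. S1pr1, the receptor by which T cells leave tissue, had 73.1 against 465 and 75 against 358. Ccr7, the lymph node homing receptor, was lower by less, at 552 against 1320 and 452 against 1182.

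Genes of regulatory and activated T cells went the other way. Of the regulatory T cell list, 10 of 14 measured were higher in PyMT and 11 of 13 in Jagged1/PyMT, with 0 lower; of the checkpoint list, 10 of 11 and 7 of 8 were higher, and of effector transcription factors 10 of 10 and 7 of 9. Ctla4, a receptor that restrains T cell activation, had 199 CPM (167 to 235) against 52.6 in PyMT and 259 (219 to 304) against 53.1 in Jagged1/PyMT. Tnfrsf9, the costimulatory receptor 4-1BB, had 207 against 31.4 and 249 against 43.2. Il2ra, the alpha chain of the interleukin-2 receptor, had 123 against 14.0 and 49.4 against 13.3. Its UMIs came from 9 of 33 and 8 of 36 members, of which 6 and 6 were Foxp3 barcodes. Foxp3 barcodes made up 18.2% and 19.4% of the members against 1.52% and 1.17% of T barcodes without the markers. The part of this make-up in the pooled levels and list counts was not tested. Thinned to 5000 UMIs, Ctla4 was detected in 37.5% and 34.4% of these members against 11.3% and 10.5% of T barcodes without the markers. The difference was thus also seen at equal depth, among barcodes with at least 5000 UMIs.

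Metabolic genes of growth were higher as well. Of nucleotide and polyamine synthesis genes, 17 of 19 were higher in PyMT and 14 of 19 in Jagged1/PyMT, with 0 lower, and of glycolysis and hypoxia genes 13 of 20 were higher in each and 3 lower in each. Ldha, lactate dehydrogenase A, had 1189 CPM against 473 in PyMT and 1118 against 541 in Jagged1/PyMT, and Gapdh had 732 against 195 and 670 against 187. Of the quiescence list, 6 of 11 and 7 of 10 were lower, among them the antiproliferative gene Btg1 with 666 against 2661 and 678 against 2886. Going the other way on that list were Cdkn2c, an inhibitor of CDK4 and CDK6, at 33.6 against 2.43 in PyMT and 35.8 against 2.52 in Jagged1/PyMT, and Cdkn1a, which encodes the cyclin-dependent kinase inhibitor p21, at 123 (97.9 to 152) against 33.3 and 106 (81.0 to 135) against 35.0.

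**Figure D4:**
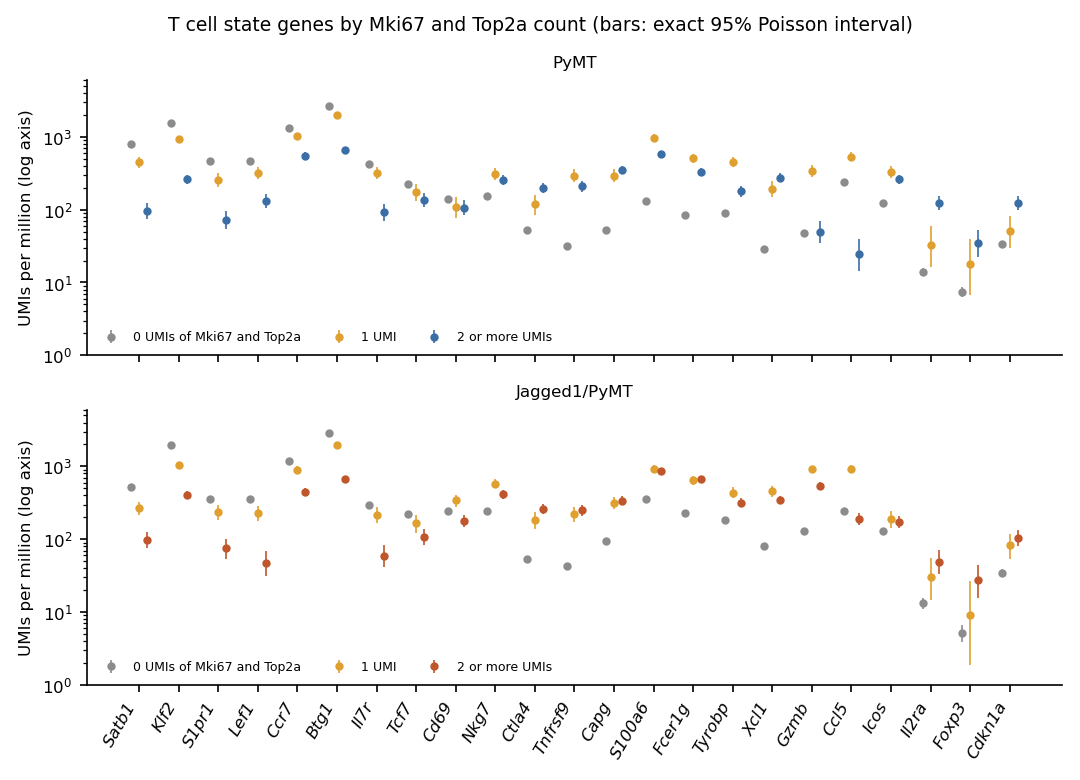
CPM (log axis) of T cell state genes in T barcodes with 0 (grey), 1 (yellow) and at least 2 (blue or red) marker UMIs, in PyMT (top) and Jagged1/PyMT (bottom), with exact Poisson intervals. Satb1, Klf2, S1pr1, Lef1 and Btg1 are highest in grey and lowest with at least 2 marker UMIs, and Ctla4, Tnfrsf9, Capg, S100a6 and Xcl1 lie above the grey points in both classes with marker UMIs.

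Pooled over their barcodes, members with 1 marker UMI differed from T barcodes without a marker UMI in effector and checkpoint genes and in part of the cycle genes. Past 1.5-fold, 29.6% of 9274 genes were higher and 11.5% lower in PyMT, and 23.5% of 8266 were higher and 13.7% lower in Jagged1/PyMT. Of effector and memory genes, 11 of 11 were higher in both libraries, and of checkpoint genes 10 of 11 and 8 of 9. The members were uneven in this: their effector and memory list UMIs ran from 0 to 112 per barcode in PyMT and from 0 to 169 in Jagged1/PyMT. The pooled counts thus do not describe each member. Early activation genes were higher in 8 of 15 and 5 of 13, replication genes in 14 of 27 and 16 of 24, and mitosis genes in 5 of 13 and 4 of 9. Markers of other cells were higher as well: macrophage markers in 7 of 9 and 6 of 11, with summed levels of 1643 against 203 CPM in PyMT and 1624 against 949 in Jagged1/PyMT, and natural killer markers in 4 of 6 and 4 of 5. One PyMT member of this kind held 405 macrophage core UMIs, and the part of these markers in the other differences was not tested. S100a6, a calcium-binding protein gene of effector T cells, had 964 CPM against 129 in PyMT and 925 against 358 in Jagged1/PyMT, whereas Birc5 had 0 UMIs and 9.16 CPM in the same members.

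Within CD8 cells, Xcl1 and Tnfrsf9 were higher and Ccr7 lower in members with at least 2 marker UMIs than in CD8 barcodes without marker UMIs. Nkg7, a cytotoxic granule gene, was detected in 11 of 14 PyMT and 14 of 15 Jagged1/PyMT CD8 members. Xcl1, which encodes a chemokine for cross-presenting dendritic cells, had 462 CPM in 8 of 14 members and 505 in 9 of 15, against 38.5 and 138 in CD8 barcodes without marker UMIs. Tnfrsf9 had 372 against 24.6 and 290 against 70.0. Ccr7 stood at 650 against 1318 in PyMT and at 179 against 1228 in Jagged1/PyMT, held by 10 of 14 and 6 of 15 members. Xcl1 was named after its values had been seen.

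Gzmb, the gene of the cytotoxic protease granzyme B, split the libraries. It was detected in 1 of 14 CD8 members with at least 2 marker UMIs in PyMT and in 5 of 15 in Jagged1/PyMT, where the highest barcode held 85 UMIs. Over all 33 and 36 members of that kind it had 49.7 CPM (34.4 to 69.4) from 4 barcodes and 545 (487 to 608) from 10. Ccl5, a chemokine gene of effector and memory CD8 cells, had 24.8 (14.5 to 39.8) from 6 barcodes and 189 (156 to 228) from 8. The highest barcode counts were 23 Gzmb and 10 Ccl5 UMIs in PyMT, and 109 and 58 in Jagged1/PyMT. Both genes therefore rest on a minority of members in each library.

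A further set of members held Tyrobp and Fcer1g, adaptor genes of natural killer and myeloid receptors. The class, chosen after its values had been seen, took T barcodes with at least 5 UMIs of the pair and at most 2 UMIs of the macrophage and neutrophil core genes together. It held 7 of the 33 PyMT members with at least 2 marker UMIs (21.2%, 8.98 to 38.9) and 10 of the 36 of Jagged1/PyMT (27.8%, 14.2 to 45.2), against 5.60% and 7.25% of T barcodes without marker UMIs at 5000 or more UMIs. Those barcodes were still shallower, with medians of 6032 and 6198.5 UMIs against 17456 and 15897.5 in the members. The part of depth in this difference was not tested. Of the members in the class, 4 of 7 and 7 of 10 were CD8 barcodes and 4 and 2 held Ncr1, a natural killer receptor gene. Their median CD3 sums were 48 and 57 UMIs. By the cycle lists, 5 of the 90 barcodes of the class were cycling in PyMT (5.56%, 1.83 to 12.5) and 14 of 58 in Jagged1/PyMT (24.1%, 13.9 to 37.2), a ratio of 4.34 (1.65 to 11.4). By at least 2 marker UMIs the ratio was 2.22 (0.894 to 5.49), and by at least 1 it was 1.66 (0.869 to 3.18), from 14 and 15 barcodes, with intervals that include 1. The class was deeper in Jagged1/PyMT, with a median of 11577 UMIs against 7596.5 in PyMT, and the part of depth in that ratio was not tested.

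Cycling Foxp3 cells held the other regulatory T cell genes. Of the 6 PyMT and 7 Jagged1/PyMT Foxp3 members with at least 2 marker UMIs, Ctla4 was detected in 6 and 7, Ikzf2, the factor Helios, in 6 and 7, and Il2ra in 6 and 6. Gzmb was detected in 2 of 6 and 1 of 7, with 25 UMIs in all in PyMT. Relative to Foxp3 barcodes without marker UMIs, Klf2 stood at 63.5 against 938 CPM in PyMT and at 189 against 1686 in Jagged1/PyMT. These Foxp3 members had median depths of 26107.5 and 22414 UMIs.

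The members did not share 1 receptor gene. Counting a T cell receptor beta variable gene where a barcode held at least 3 UMIs of it, 31 of the 33 PyMT members with at least 2 marker UMIs held one, spread over 13 genes, and no gene was held by more than 5. In Jagged1/PyMT 29 of 36 held one, over 10 genes, with Trbv24 in 7. Clones cannot be read from these counts, which give no junction sequence.

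Between genotypes, cycling T cells as the rule defines them differed past 1.5-fold in 293 of 4515 genes with at least 50 UMIs that were higher in Jagged1/PyMT (6.49%) and in 300 that were lower (6.64%), with no test since there is 1 library per genotype. In T barcodes without marker UMIs the shares were 7.99% higher and 6.25% lower of 9897 genes. Of the replication list, 1 of 33 measured genes was higher and 0 lower, and of the mitosis list 4 of 31 were higher and 0 lower, with list medians of -0.03 and 0.26 on the log2 scale. The cycle genes of members were thus nearly level between the libraries, with the mitosis list slightly higher in Jagged1/PyMT. Among members with at least 2 marker UMIs, 7.86% of 3319 genes were higher and 7.2% lower, and the replication list again had 1 of 33 higher and 0 lower, the mitosis list 5 of 30 and 0, and the cytotoxic list 3 of 4 and 0.

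Cytotoxic genes were higher in Jagged1/PyMT members in 4 of 6 measured, and 1 was lower. Gzmb had 145 CPM in PyMT and 678 in Jagged1/PyMT members (log2 ratio 2.23, 1.97 to 2.5), from 10 and 20 barcodes. It was 47.8 and 130 in T barcodes without marker UMIs, a log2 ratio of 1.44, so the direction was the same outside the cycling cells. Ccl5 had a log2 ratio of 1.24 (0.99 to 1.5) in members and 0.05 in T barcodes without marker UMIs, and Nkg7 had 0.78 (0.56 to 1.0) and 0.67. For Ccl5, 1 Jagged1/PyMT member held 58 UMIs. The lower gene was Gzma, whose 110 PyMT UMIs all came from 1 barcode and which had 0 in Jagged1/PyMT.

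Effector and memory genes were higher in 3 of 10, with 0 lower, and early activation genes were higher in 3 and lower in 3 of 13. Cd69, a receptor that retains T cells in tissue after activation, had 107 CPM in PyMT and 237 in Jagged1/PyMT (log2 ratio 1.15, 0.81 to 1.49), from 37 and 61 members, and 0.78 in T barcodes without marker UMIs. Its log2 ratio was 0.75 (0.30 to 1.20) in members with at least 2 marker UMIs, near that value. In members with 1 it was 1.66 (1.10 to 2.24). Icos, a costimulatory receptor gene, was lower, with a log2 ratio of -0.67 (-0.95 to -0.38) in members and 0.08 outside them. Il2ra had -1.13 (-1.71 to -0.58) and -0.07 outside, and Nr4a3, a factor induced by receptor signalling, -1.43 (-2.04 to -0.86) and -1.16 outside. Free RNA of Nr4a3 was also lower in Jagged1/PyMT, at 63.3 against 169 CPM.

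Of the T cell core list, 3 of 10 were lower and 0 higher: Cd247, the zeta chain of the receptor complex, and the beta chain constant genes Trbc1 and Trbc2. Trbc1 had 106 CPM in PyMT and 40.5 in Jagged1/PyMT (log2 ratio -1.39, -1.97 to -0.84), and Trbc2 had -0.75 (-0.96 to -0.54), against -0.27 and -0.14 in T barcodes without marker UMIs. Trbc1 and Trbc2 are close copies whose reads the counting can split, so each value is uncertain. Of the other lists, glycolysis had 0 higher and 0 lower of 16, the interferon response 0 and 0 of 8, nucleotide synthesis 0 and 1 of 16, checkpoints 1 and 0 of 6, heat shock 4 and 0 of 19, and the Notch pathway 1 and 0 of 4. Of markers of other cells, monocyte and neutrophil genes were higher in 2 of 3 measured, dendritic genes in 2 of 3, and macrophage genes lower in 1 of 4. In T barcodes without marker UMIs macrophage markers were higher in 11 of 11 (median 2.20) and monocyte and neutrophil markers in 9 of 10 (median 1.90), and their part in the ratios given for those barcodes was not tested. Notch1, a receptor for Jagged1, had a log2 ratio of -0.28 (-1.02 to 0.46) in members.

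Histone genes of S phase were higher in 14 of 17 measured and lower in 0, with a list median of 1.09 on the log2 scale. Hist1h1b had a log2 ratio of 1.04 (0.72 to 1.37) and Hist1h1e of 1.11 (0.85 to 1.39), while Hist1h2ap, with by far the most UMIs (2010 and 1363), had -0.41 (-0.51 to -0.31). Single barcodes weighed on this: without the member with most UMIs in each library, 9 of 15 were higher, 0 lower, and the median was 0.69. Free RNA moved the same way, with Hist1h1e at 94.6 and 198 CPM, and its part was not tested. These genes have near-identical copies and most of their transcripts lack the poly(A) tail that 3' counting captures, so single genes are uncertain.

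The genes that the naming rule picked stood as follows. Higher in Jagged1/PyMT beside Gzmb, Cd69 and 4 histone genes were Plac8 (log2 ratio 3.41, 2.42 to 4.59, from 9 and 86 UMIs), Tnni1 (1.63), S100a1 (1.54) and Gnb2 (1.0). Plac8 was held by 4 PyMT and 10 Jagged1/PyMT members, of which 3 and 3 had at least 2 marker UMIs. Its log2 ratio was 2.39 (1.26 to 3.71) in members with at least 2 marker UMIs and 1.12 in T barcodes without any. In PyMT members its 8.86 CPM lay under its free-RNA level of 84.9. Gnb2, Tnni1 and S100a1 had log2 ratios of 0.97, 1.75 and 1.46 in T barcodes without marker UMIs, much as in the members. Free RNA of Gnb2 was also higher in Jagged1/PyMT, at 264 against 164 CPM, and its part was not tested. That of S100a1 was lower, at 24.3 against 28.3. Lower were Pdcd1lg2 (-2.05, -3.20 to -1.04), Bcl2l1 (-2.00, -3.10 to -1.04), Krt83 (-1.82), Trbv31 (-1.66), Crip2 (-1.66), Trbc1 (-1.39), Gm42743 (-1.24), Lmna (-1.23), Il21r (-1.10) and Pabpc1 (-0.92).

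Pdcd1lg2 encodes PD-L2, a ligand of the checkpoint receptor PD-1, and Bcl2l1 encodes the survival protein Bcl-xL. Neither was lower outside the cycling cells, with log2 ratios of 0.05 and 0.44. In cycling cells Pdcd1lg2 had 46 UMIs in 24 PyMT members and 10 in 8 Jagged1/PyMT members, and Bcl2l1 had 49 in 22 and 11 in 8. Among members with at least 2 marker UMIs the log2 ratio of Pdcd1lg2 was -1.17 (-2.55 to 0.06), an interval that includes 0, and that of Bcl2l1 was -1.86 (-3.09 to -0.78). Among members with 1 marker UMI, Pdcd1lg2 had 75.3 and 6.10 CPM. Pabpc1, Il21r and Lmna were lower in T barcodes without marker UMIs too, by log2 ratios of -0.88, -0.74 and -0.91. Free RNA was lower in Jagged1/PyMT as well, at 1167 and 507 CPM for Pabpc1 and 153 and 70.1 for Il21r. For Lmna it was lower by less, at 103 and 92.0. The part of free RNA in these ratios was not tested. In Gm42743, Crip2 and Krt83, 1 PyMT barcode gave 77.3%, 55.1% and 51.1% of the PyMT UMIs.

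**Figure D5:**
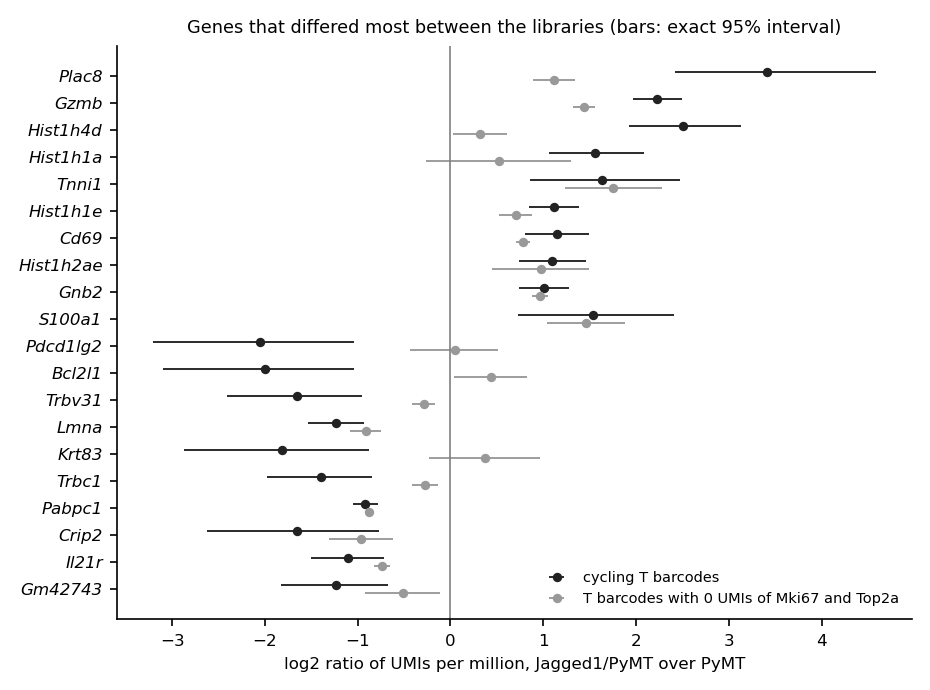
Log2 ratios of CPM, Jagged1/PyMT over PyMT, of the 20 genes picked by the naming rule, in cycling T barcodes (black) and in T barcodes without marker UMIs (grey), with exact intervals from counting error. Gnb2, Tnni1, S100a1, Pabpc1 and Il21r lie near the same value in both classes, whereas Pdcd1lg2, Bcl2l1 and Krt83 have black points left of 0 and grey points right of it.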

How the data were processed

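The deposited data are raw UMI counts per gene and barcode, 1 matrix per genotype with 31053 features, made by the authors. Cell Ranger 3.0.2 was used, according to the submitters' processing notes. Genome build and annotation stand as not given in the sources used here. Each matrix pools the samples of its genotype. Barcodes were gated on these counts as stated in the report, which left medians of 3909 and 3809 UMIs per T barcode. No doublet caller was run; the gate limits C1q and B cell genes, and shares were also computed without barcodes holding at least 3 UMIs of macrophage, B, neutrophil and epithelial core genes. UMIs were summed over the barcodes of a class and scaled to CPM, a total of 1000000. Intervals are exact binomial (Clopper-Pearson) for shares, exact Poisson for levels, exact conditional binomial for ratios of levels and log-normal for ratios of shares, at 95%; they cover counting error only. Genes with at least 50 UMIs over both libraries were measured, and past 1.5-fold was called. Where a library has 0 UMIs, a floor of 3 counts was used for the lists. Named genes are the 10 higher and 10 lower with the largest log2 ratio by the interval bound nearest 0, held by at least 10 cycling barcodes of the higher library and not under their free-RNA level there, up to 6 most counted members of each of 27 gene lists, and a set of cycle and subset markers; other genes were named after their values had been seen. The members and lists were chosen with earlier results of these data known. A split of CD8 barcodes by naive and effector genes is not reported here. The comparison within cycling CD8 or CD4 barcodes by genome-wide counts was not made, since each would need 30 members per library. Marker motifs were searched in RefSeq promoters (first listed start of each gene). Functions were tested on simulated data. Python 3.11.15, numpy 2.4.6, scipy 1.17.1 and pandas 2.3.3 were used.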

Additional observations from a re-analysis of the deposited data

How the results depend on the processing

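The shares, ratios and gene counts were recomputed under other settings, and of those that answer a comparison 89 stayed near the value reported, 22 moved and 1 reversed. For shares and their ratios, near means inside the 95% interval of the value reported, which is wide for small subsets. Only a ratio whose interval excludes 1 could be called reversed. Some settings hardly changed the members: at least 1000 UMIs kept 88 and 86, and a CD3 sum of at least 4 kept 87 and 86. Thinned to 1000 UMIs, the ratio of the CD8 cycling share between genotypes reversed to 0.527, and the make-up of cycling T barcodes moved to 13.6% CD8 in Jagged1/PyMT, 3.70% and 4.55% Foxp3 and 11.1% and 4.55% other CD4 in PyMT and Jagged1/PyMT; 27 and 22 barcodes stayed cycling at that depth. With at least 2 marker UMIs, the make-up moved to 42.4% CD8 in PyMT, 19.4% Foxp3 in Jagged1/PyMT and 18.2% other CD4 in PyMT. By the cycle lists it moved to 43.8% CD8, 25% Foxp3 and 15.6% other CD4 in PyMT and to 51.4% CD8 in Jagged1/PyMT, and thinned to 5000 UMIs to 52.3% CD8 in Jagged1/PyMT; these 2 settings were chosen after seeing the data. The counts of genes past 1.5-fold (293 higher, 300 lower) were 722 and 803 with a minimum of 20 UMIs per gene, 113 and 95 with a minimum of 100, 29 and 25 after thinning to 1000 UMIs, 76 and 62 past 2-fold, and 468 lower when each barcode was scaled to its own total; more or fewer genes enter at other minimums, and otherwise the cause was not tested. List medians reversed for histones after thinning to 1000 UMIs (-0.98, from 1 gene), for dendritic cell markers with a minimum of 100 UMIs (-0.20), and for monocyte and neutrophil markers without barcodes of a further lineage (-0.84) and with at least 2 marker UMIs (-1.15). Gzmb kept its direction in every setting run, with log2 ratios from 1.54 to 3.46.

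No paired analysis was possible because the samples of a genotype share 1 matrix with no key from barcode to sample, and for the same reason no sample was left out in turn. Precision is limited by 174 members, of which 33 and 36 held at least 2 marker UMIs, and a difference between mice cannot be told apart from a difference between genotypes.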
